A study of Drosophila melanogaster with 4 samples.

Results

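The regions described here are the H3K4me1 peaks on the 6 Het scaffolds of the Drosophila melanogaster genome, 2LHet, 2RHet, 3LHet, 3RHet, XHet and YHet. They were taken from the deposited peak list by the name of the sequence alone, without regard to score or width, and number 271 of 11173 peaks, or 2.43% of the list. The cells were S2-DRSC, an established embryo-derived line (late embryonic stage, male in the labels), with no treatment named. Chromatin was fixed with formaldehyde and sheared, and an affinity-purified polyclonal antibody raised in rabbit against H3K4me1 was used for the 2 ChIP libraries, beside which 2 libraries of unprecipitated input DNA were made. The analysis rests on 1 peak list that carries no values per library, so the depth was not analysed here and no difference below was tested. Spreads are quartiles over peaks, which share their libraries and are not replicates.

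Heterochromatin is the compact part of the genome around centromeres and on most of the Y chromosome. It is rich in transposable elements and satellite repeats, poor in genes, and known for methylation of histone H3 at lysine 9 and for HP1, the protein that binds that mark. H3K4me1 is best known from enhancers and the flanks of active promoters, where in flies the methyltransferase Trr places much of it, and the demethylase Su(var)3-3 is known to remove methyl groups from lysine 4 where heterochromatin forms. A Het scaffold is a piece of assembled heterochromatin that could be assigned to a chromosome arm, or to the Y, but not joined to it in release 5 of the genome. Much of such sequence has near-identical copies elsewhere. How reads with several matching places were treated is not given in the sources used here, so a score on such sequence may count reads from more than its own copy, and the part this plays in the scores below was not tested.

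The peaks were spread unevenly over the scaffolds. 2RHet held 101 peaks, 3LHet 91 and 3RHet 50, which together made up most of the 271, while 2LHet held 19, YHet 7 and XHet 3. Per Mb of the stretch from first to last peak, 2LHet was the most densely populated, with 77.4 peaks per Mb over 0.245 Mb. The longer scaffolds had 36.0 peaks per Mb on 3LHet, 31.0 on 2RHet and 20.9 on 3RHet. The 5 large arms, 2L, 2R, 3L, 3R and X, had 67.2 peaks per Mb measured the same way. The first peak of 2LHet follows 123578 bases without one, and counted from the first base its density was 51.5 peaks per Mb, against 67.2 on the arms. Peak bases took up 3.80% of the Het stretches and 7.44% of the arm stretches. Among the scaffolds this share ran from 3.41% on 3LHet to 6.91% on 2LHet, and among single arms from 5.46% on X to 10.2% on 2R. On 3RHet fewer but wider peaks gave 4.14%, above the 3.52% of 2RHet. Counted from the first base, each of the 6 scaffolds held fewer peaks per Mb than the arms pooled, with 3RHet the lowest at 20.4. This did not hold against every single arm, since 2LHet lay above X.

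**Figure D1:**
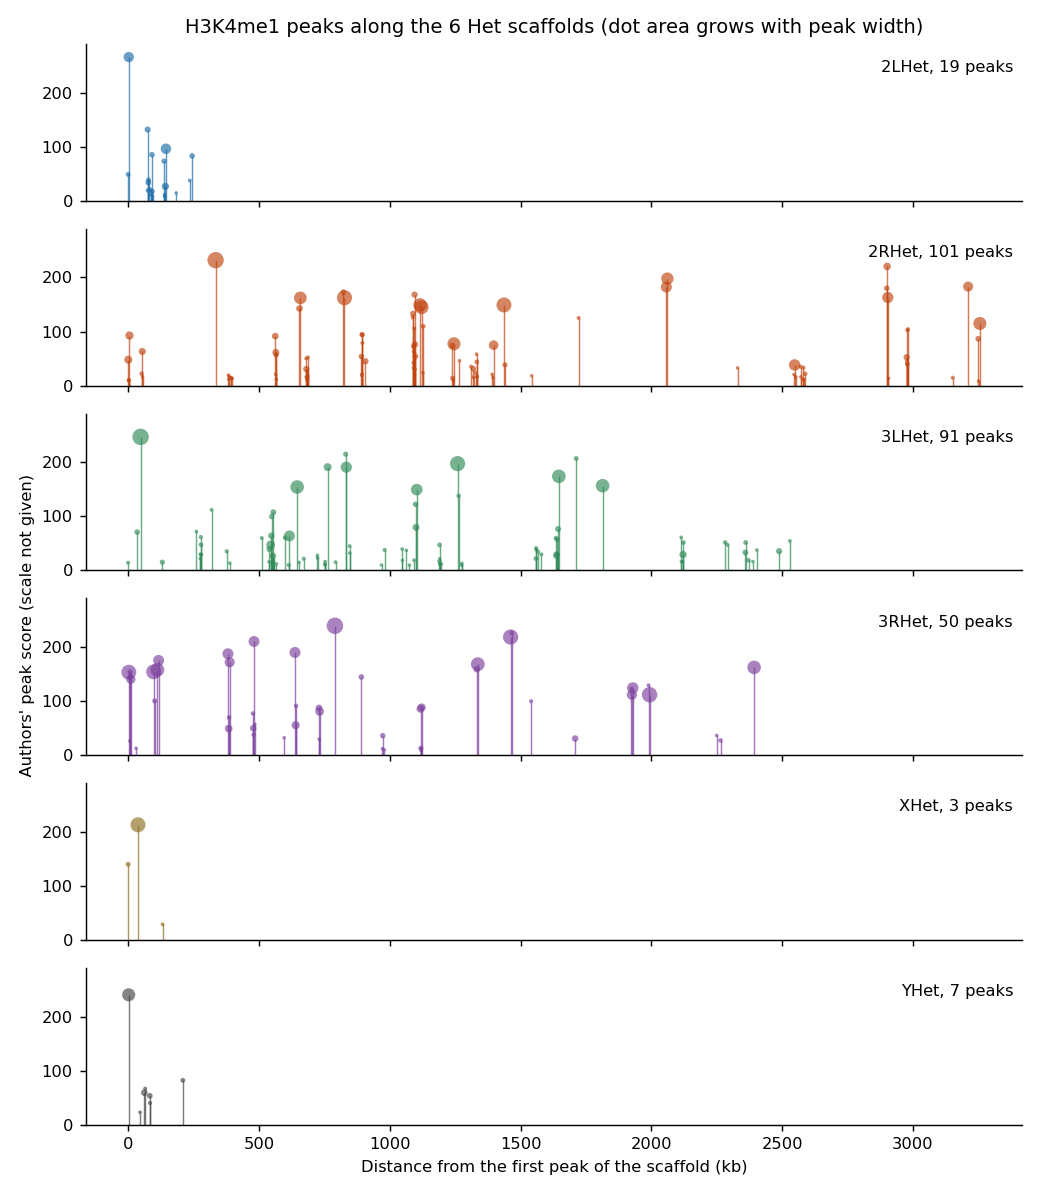
H3K4me1 peaks along each Het scaffold, with the distance from the scaffold's first peak in kb on the x axis and the authors' score on the y axis, where each line and dot is 1 peak and the dot area grows with width. Peaks stand in tight groups with long empty stretches between them, and each of the 6 scaffolds has at least 1 peak scoring above 200.

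Long stretches of the scaffolds were without a peak. The longest between neighbouring peaks of 2RHet ran from 1752904 to 2086301 and measured 333398 bases, and that on 3LHet, from 1839128 to 2136859, measured 297732 bases. On 3RHet the longest ran from 177163 to 438859, or 261697 bases, and on YHet from 155899 to 280878, or 124980 bases. Those of XHet, from 41188 to 131900, and 2LHet, from 127730 to 197997, measured 90713 and 70268 bases. On 2LHet the 123578 bases before the first peak were a longer empty stretch than any between its peaks. In blocks of 100 kb from the first base to the last peak, 25 of 93 Het blocks had no peak, or 26.9% (exact binomial 95% interval 18.2 to 37.1, with blocks taken as independent). On the arms it was 228 of 1193 blocks, or 19.1% (16.9 to 21.5), with X at 33.3% and 2R at 8.49%. The Het value thus lay inside the range of single arms. Since depth and mappability were not analysed here, an empty stretch may lack the mark or lack reads that could be placed.

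Neighbouring peaks fell into near and far pairs, with few at distances between. Of the 265 pairs of neighbours on 1 scaffold, 138 were less than 2000 bases apart, or 52.1% (exact binomial 95% interval 45.9 to 58.2, with pairs taken as independent). On the large arms 56.2% were that close and in the 1 Mb of each arm nearest the centromere 54.1%, both inside that interval. The median gap among these near pairs was 309.5 bases on the Het scaffolds and 347 bases on the arms. The far pairs were the ones that differed in size. Gaps from 2000 to 9999 bases made up 10.9% of Het pairs and 21.5% of arm pairs, whereas gaps of 10 kb or more made up 37.0% and 22.3%. In the 1 Mb of each arm nearest the centromere these shares were 14.1% and 31.8%, nearer to the Het values than to those of the arms as a whole. Among pairs at least 2000 bases apart, the median gap was 38279 bases on the Het scaffolds, 20239 bases in the arm stretches next to the centromere and 10286 bases on the arms as a whole. The 28 Het gaps of 100 kb or more held 60.2% of the bases between first and last peaks, against 39.8% for the 257 such gaps on the arms. Single arms ran from 21.6% on 2R to 59.4% on X, so the Het value was close to that of X.

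**Figure D2:**
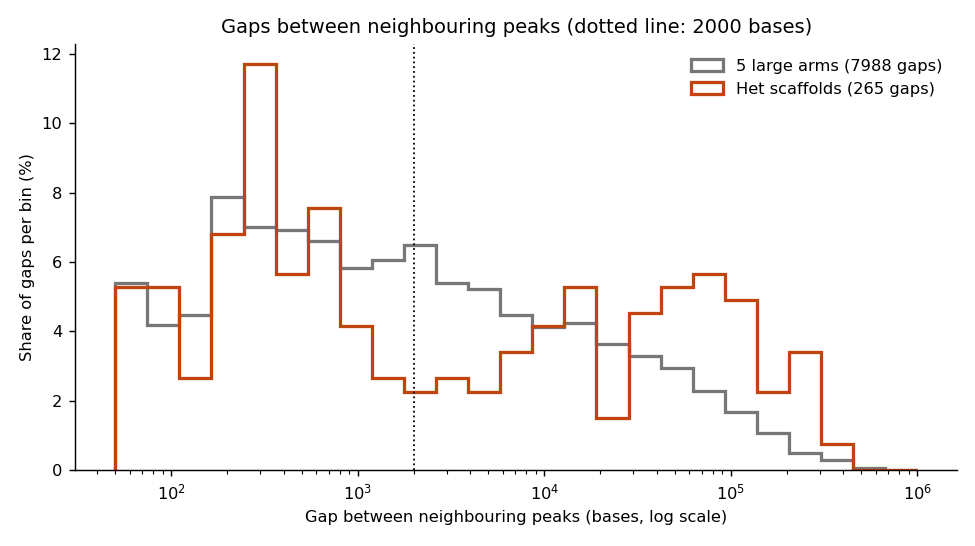
Share of gaps between neighbouring peaks in each bin of gap length (log scale, bases), for the 265 gaps of the Het scaffolds and the 7988 of the 5 large arms. The Het curve is low between 2000 and 9999 bases, where 10.9% of its gaps lie against 21.5% on the arms, and high from 10 kb upward.

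The scaffolds differed among themselves in this. On 2RHet 60 of 100 pairs were close, on 3RHet 27 of 49, on 2LHet 11 of 18 and on 3LHet 39 of 90. The median gap was 835.5 bases on 2RHet, 791 on 3RHet and 778.5 on 2LHet, but 6049.5 on 3LHet, where single peaks were common. The 7 peaks of YHet gave 1 close pair of 6 and the 3 of XHet none of 2. Joining all neighbours less than 2000 bases apart left 133 groups, of which 71 were single peaks and 62 held several. The grouped peaks numbered 200 of 271, or 73.8%, against 79.7% on the arms. Groups of 5 or more peaks held 28.4% of Het peaks and 31.1% of arm peaks. The median length of a group with several peaks was 4438 bases on the Het scaffolds and 3675 on the arms. Among groups with several peaks, 4 of 62 Het groups spanned over 10 kb, or 6.45%, and 190 of 1876 arm groups, or 10.1%. The longest Het group measured 12819 bases and the one with the most peaks held 11. On the arms, with many more groups, these maxima were 47986 bases and 29 peaks.

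The groups with the most peaks stood on 2RHet and 3LHet and differed in how their peaks ranked. The largest held 11 peaks on 2RHet from 1118408 to 1129279, a span of 10872 bases of which peaks covered 66.6%. Its scores ran from 30.5 to 168, and each of its peaks lay at or above percentile 80.1 among arm peaks of like width. The next held 10 peaks on 3LHet from 566837 to 579655, and at 12819 bases it was the longest Het group. Its scores ran from 8.41 to 108, and its peaks had a median percentile of 60.9 and a lowest of 7.63. A group of 8 peaks on 2RHet, from 710828 to 718375, scored between 10.6 and 52.4, with a median percentile of 83.4 and a lowest of 16.8. A group of 7 on the same scaffold, from 3006143 to 3012132, scored between 38.3 and 104, with a median percentile of 98.1 at like width. Groups of similar size therefore ranged from ordinary to near the top of the arm distribution.

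Close neighbours on the Het scaffolds had more alike scores than distant ones. Spearman's rho between the scores of neighbours was 0.42 over the 138 pairs less than 2000 bases apart and 0.04 over the 127 other pairs. On the arms the values were 0.24 over 4492 pairs and 0.06 over 3496. With each score replaced by its percentile at like width, rho over the close Het pairs was 0.31 and over the close arm pairs 0.15. These pairs share libraries and peaks, so the values describe the list. Single Het peaks and those in groups of 5 or more ranked alike at matched width, with medians of 90.3 (quartiles 76.1 and 97.0, n = 71) and 92.5 (68.4 and 96.9, n = 77). On the arms the corresponding medians were 43.8 for single peaks and 54.1 for peaks in groups of 5 or more.

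Het peaks were of ordinary width for the most part, with a larger share of very wide ones. The median width was 552 bases (quartiles 352 and 1120), against 597 (336 and 1246) on the arms. By scaffold the median was 487 on 2RHet, 487 on 3LHet, 648 on YHet, 662 on 2LHet, 706 on XHet and 1017 on 3RHet. 3RHet also had the highest upper quartile of the scaffolds with more than 10 peaks, at 3202 bases. Peaks of 4000 bases or more numbered 24 of 271, or 8.86%, against 391 of 7993, or 4.89%, on the arms, where the share ran from 4.09% on 3R to 6.03% on X. They held 41.2% of the Het peak bases and 25.4% of the arm peak bases. In the 1 Mb of each arm nearest the centromere, peaks this wide were 6.67% of peaks and held 30.8% of peak bases. From 2000 to 3999 bases the order was the other way, with 7.38% of Het peaks and 9.62% of arm peaks. No Het peak was wider than 7504 bases, while 31 arm peaks exceeded 7600 bases and the widest reached 19468.

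Scores on the Het scaffolds stood high in the list. The authors' score carries no stated unit, so it is read here by rank. Of the 271 peaks, 110 fell in the highest-scoring 25% of the list, or 40.6% (exact binomial 95% interval 34.7 to 46.7, with peaks taken as independent). The share was 14.3% of arm peaks and 28.4% of the peaks in the 1 Mb of each arm nearest the centromere. On U and Uextra, collections of unplaced sequence, it was 57.3% and 52.5%, both above the Het share. The next 25% of the list by score held 76 Het peaks, the 25% after that 52 and the lowest-scoring 25% held 33. By scaffold, the count in the highest-scoring 25% was 33 of 50 on 3RHet, 4 of 7 on YHet, 2 of 3 on XHet, 38 of 101 on 2RHet, 6 of 19 on 2LHet and 27 of 91 on 3LHet. The median score was 95.7 on 3RHet (quartiles 36.9 and 154), 40.4 on 2RHet (18.3 and 92.7), 34.7 on 3LHet (16.4 and 60.8) and 33.8 on 2LHet (16.1 and 78.3). 3RHet had the highest median of these 4, although its quartiles overlapped those of the other scaffolds. A score of 250 or more was reached by 1 Het peak, or 0.37%, and by 11 arm peaks, or 0.14%. On Uextra 20 peaks reached it, or 0.79%, and on U 3 peaks, or 0.83%.

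Wider Het peaks had higher scores, as wider arm peaks did, with Spearman's rho of 0.76 over 271 peaks and 0.81 over 7993. Among the scaffolds with more than 10 peaks it ran from 0.70 on 3LHet to 0.82 on 2LHet. A fair comparison therefore sets each Het peak against arm peaks of its own width. For each Het peak the percentile of its score was taken among arm peaks whose width lay within 10% of its own. Between 47 and 795 arm peaks stood behind each percentile, with a median of 615.

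**Figure D3:**
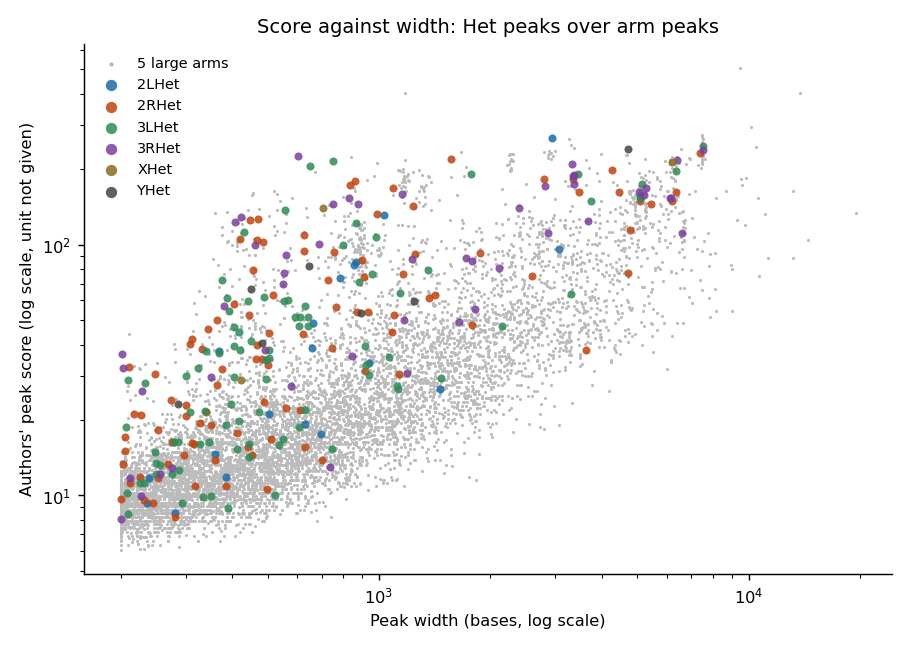
The authors' score against peak width, both on log scales, for the 7993 peaks of the 5 large arms (grey) and the 271 Het peaks (coloured by scaffold). Both sets rise with width, and most Het peaks lie along or above the upper side of the arm cloud.

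At like width, most Het peaks outranked most arm peaks. The median percentile was 90.3 (quartiles 72.0 and 96.7, n = 271), and 242 of the 271, or 89.3%, lay above the arm median for their width. Above percentile 90 lay 138 Het peaks, or 50.9%. Each large arm set against the other 4 gave a yardstick for how far whole sequences vary, with medians from 48.4 on 2L to 54.1 on X and shares above percentile 90 from 7.84% on 2L to 17.7% on X. Each of the 6 scaffolds had a median above this range. It was 96.1 on YHet, 92.6 on 3RHet, 91.6 on 2RHet, 91.0 on XHet, 89.9 on 3LHet and 75.2 on 2LHet. The first 5 of these lay close together, while 2LHet was lower with a wide spread (quartiles 54.1 and 92.7, n = 19).

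**Figure D4:**
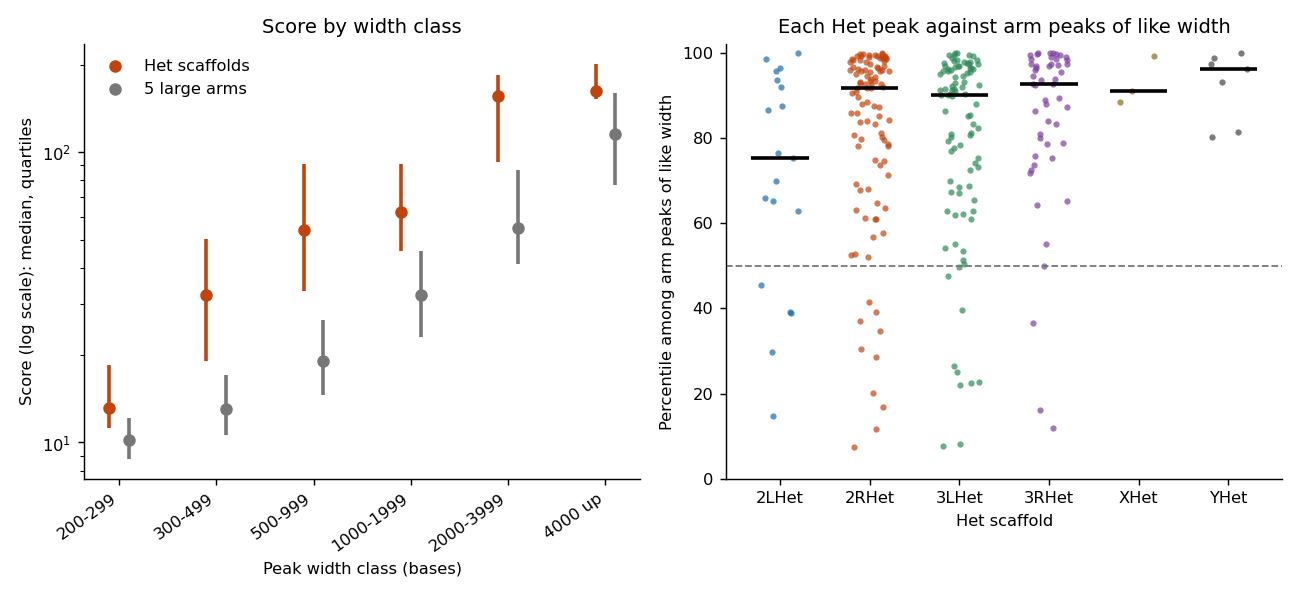
Left, the median score (dot) and its quartiles (line) on a log scale in 6 width classes for Het and arm peaks. Right, the percentile of each Het peak among arm peaks within 10% of its width, with the median of each scaffold as a black line and the arm median as a dashed line; 242 of 271 peaks lie above the dashed line.

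The difference was present in each width class and varied in size. Among peaks of 200 to 299 bases the median score was 13.2 for 47 Het peaks and 10.2 for arm peaks. From 300 to 499 bases it was 32.2 for 77 Het peaks and 13.1 on the arms, and from 500 to 999 bases 53.8 for 73 Het peaks and 19.1 on the arms. From 1000 to 1999 bases the 30 Het peaks had a median of 62.3 against 32.2, and from 2000 to 3999 bases the 20 Het peaks had 156 against 55.0. Among peaks of 4000 bases or more the medians were 162 for 24 Het peaks and 116 for 391 arm peaks. Widths within this open class were not matched for these medians. In percentiles the Het medians were 79.3, 92.9, 92.3, 86.5, 94.0 and 78.2 from the narrowest class to the widest. The classes at both ends thus lay nearer to the arms than the 4 between.

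The Het peaks were also set beside the arm stretches next to the centromere. The 225 peaks of the most proximal 1 Mb of the large arms had a median percentile of 74.5 (quartiles 32.9 and 92.1), and 28.9% of them exceeded percentile 90. Arm by arm, the order was mixed. The median percentile was 49.8 over 98 peaks at the base of 3R against 92.6 on 3RHet, and 68.6 over 26 peaks at the base of 2L against 75.2 on 2LHet. It was 86.8 over 26 peaks at the base of 2R against 91.6 on 2RHet, and 83.9 over 50 peaks at the base of X against 91.0 on XHet. On 3L the order was the other way, with 93.5 over 25 peaks at the base of the arm and 89.9 on 3LHet. The base of 3R supplied 98 of the 225 proximal peaks, so it weighs heavily in their pooled median. On the unplaced collections U and Uextra the medians were 96.8 and 96.8, above that of the Het scaffolds, and 97.8% and 97.3% of their peaks lay above the arm median for their width.

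The 10 highest-scoring Het peaks were shared among all 6 scaffolds and ranked between 25th and 134th in the list. The highest, on 2LHet from 124788 to 127729, was 2942 bases wide and scored 266, above each of the 215 arm peaks of like width. It was followed by the peak on 3LHet from 67146 to 74644 (7499 bases, score 247), the peak on YHet from 71681 to 76405 (4725 bases, score 240) and the peak on 3RHet from 845633 to 853136 (7504 bases, score 239). On 2RHet the highest lay from 361734 to 369100 (7367 bases, score 232). The highest on XHet lay from 34971 to 41187 (6217 bases, score 213). On each scaffold but 2LHet, the highest-scoring peak was also the widest. The widest of 2LHet lay from 266927 to 269991, with 3065 bases and a score of 96.2.

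The remaining 4 of the 10 were of other kinds. On 3RHet a peak of 603 bases from 1524474 to 1525076 scored 226, where arm peaks of its width had a median of 16.9. It stood 466 bases from a peak of 6415 bases, from 1517593 to 1524007, that scored 218. On 3LHet a peak of 752 bases from 854378 to 855129 scored 215, where the arm median at that width was 20.3, and on 2RHet a peak of 1566 bases from 2931006 to 2932571 scored 220. The narrow peaks on 3RHet and 3LHet each stood within 500 bases of a peak wider than 3000 bases. Altogether 5 Het peaks scored above every arm peak of like width. They were the highest of 2LHet and of YHet, both narrow peaks just named on 3RHet and 3LHet, and a peak of 649 bases on 3LHet from 1735278 to 1735926 with a score of 207, which had no neighbour within 2000 bases.

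The Y and X scaffolds are small enough to give in full. On YHet, besides the peak at 71681 to 76405, a peak of 286 bases from 117244 to 117529 scored 23.2 and one of 1242 bases from 133269 to 134510 scored 59.4. The peak of 451 bases from 137067 to 137517 scored 66.8. A close pair followed, of 893 bases from 154453 to 155345 with a score of 53.6 and of 481 bases from 155418 to 155898 with a score of 40.4. The last, of 648 bases from 280879 to 281526, scored 82.3. All 7 lay above the arm median for their width, with percentiles from 80.1 to 100. On XHet the first peak, of 706 bases, lay from 37 to 742, at the very start of the scaffold, and scored 140, at percentile 99.3. The last, of 422 bases from 131901 to 132322, scored 28.9, at percentile 88.3. With 7 and 3 peaks, these scaffolds carry little weight in any comparison of medians.

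At the other end, 12 Het peaks, or 4.43%, fell below percentile 25 at like width, against 24.6% of arm peaks. Of these 12, 10 stood in groups with other peaks, as did 73.8% of all Het peaks. The 12 had a median width of 370 bases, against 552 for all Het peaks. The one wide case was a peak of 3634 bases on 2RHet from 2576674 to 2580307, with a score of 38.2 at percentile 7.51, the lowest of all Het peaks. The lowest score on the Het scaffolds was 8.07, for a peak of 200 bases on 3RHet from 1179512 to 1179711, above the lowest of the list at 6.06.

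The 24 Het peaks of 4000 bases or more scored from 77.3 to 247, with quartiles of 152 and 202. They lay on 2RHet (9), 3RHet (8), 3LHet (5), XHet (1) and YHet (1). All but 1 scored 100 or more, or 95.8%, against 59.8% of the 391 arm peaks of 4000 bases or more. The exception, on 2RHet from 1274053 to 1278775, had 4723 bases and a score of 77.3. Widths within this class were not matched between the 2 sets. Below 5000 bases, 4 of 5 Het peaks and 68 of 155 arm peaks scored 100 or more. From 5000 to 5300, 6100 to 6500 and 7300 to 7600 bases, all Het peaks did. The arm shares there were 78.9%, 81.8% and 88%. How much of the contrast goes with width was not tested. Of the 24, 16 lay within 50 bases in width of another. The same count was not made for arm peaks, so it does not show that widths recur more on the Het scaffolds. The width windows that follow were chosen after the widths were seen, and no test was made of whether widths recur.

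From 5000 to 5300 bases there were 7 Het peaks, with widths of 5055, 5194 and 5261 on 3RHet, 5081, 5089 and 5152 on 3LHet and 5084 on 2RHet. Their scores lay between 149 and 174. The 57 arm peaks in this window scored from 39.7 to 220, and 24 of them lay between 140 and 180. From 6100 to 6500 bases there were again 7, on 2RHet, 3LHet, 3RHet and XHet. Their scores fell on both sides of a gap, with 4 between 149 and 162 and 3 between 197 and 218. The 33 arm peaks there ran from 43.4 to 224 around a median of 180.1. The 3 Het peaks between 7300 and 7600 bases, on 2RHet, 3LHet and 3RHet, scored 232, 247 and 239 and were each a scaffold's highest. In the same window 21 of 25 arm peaks scored 200 or more. From 3300 to 3400 bases 6 Het peaks had a median score of 185, and 5 of them scored 100 or more, while 7 of 24 arm peaks did. The Het median was above the arm median in 3 of the 4 windows, and below it from 6100 to 6500 bases. Yet the 7 Het peaks of that window all lay above the arm median at like width, at percentiles from 61.1 to 93.8. The arm medians within 10% of their widths ran from 125 to 135, against 180.1 inside the window. From 5000 to 5300 bases such medians ran from 120 to 125, against 145 inside the window. Percentiles of these wide peaks thus depend on how closely width is matched.

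**Figure D5:**
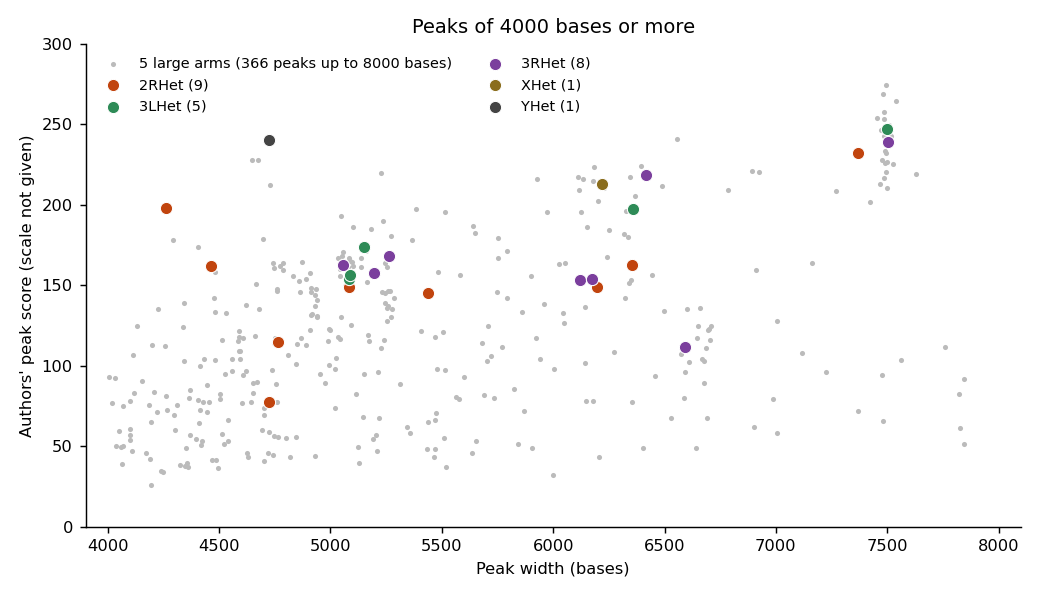
The authors' score against width in bases for peaks of 4000 bases or more, with the 24 Het peaks coloured by scaffold over the 366 arm peaks of 4000 to 8000 bases in grey. Het peaks from different scaffolds lie near each other at 5055 to 5261 bases with scores of 149 to 174, and at 7499 and 7504 bases with scores of 247 and 239, beside arm peaks of the same width and score.

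Wide peaks had close neighbours in similar shares on the Het scaffolds and on the arms. A peak less than 1000 bases away accompanied 15 of the 24, or 62.5%, and 247 of the 391 wide arm peaks, or 63.2%. On 3RHet several wide peaks stood in compact groups, such as the 5 peaks from 58695 to 70436, which began with a peak of 6119 bases and scored from 26.2 to 154 over 11742 bases. The 3 peaks over 7300 bases each stood alone, with no neighbour within 2000 bases.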

How the data were processed

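H3K4me1 was mapped by ChIP-seq in S2-DRSC cells, and 1 peak list for the whole series was analysed. The authors deposited for each peak a start, an end and a score whose scale is not given. Positions refer to FlyBase release 5 and the caller was MACS, per the file headers. The submitters' processing notes name CASAVA 1.7.0.2 and 1.7.0.3, BWA, MACS2 and BDGP5, without roles. What threshold was set, how libraries were combined and how multiply matching reads were handled is not given in the sources used here. File starts reach 0 and were read as 0-based, and printed positions are 1-based.

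Values were computed in Python 3.11.15 with scipy 1.17.1, pandas 2.3.3 and numpy 2.4.6, and drawn with matplotlib 3.10.9. Percentiles at like width used arm peaks within 10% of a peak's width, at least 20 of them, and for arm peaks only the other arms. The percentile procedure was checked on random draws of arm peaks, with scores as listed and doubled, and the grouping procedure on simulated peaks. Apart from these checks, neither resampling nor tests over peaks were run. Read depth was not analysed here, so intervals cover counting error only.

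Peaks named by position are the highest-scoring and widest of each scaffold, the 10 highest-scoring, every peak of scaffolds with 10 peaks or fewer, the largest group and the longest stretch between neighbouring peaks per scaffold. Others were chosen after their values were seen, namely the smaller groups, the peaks above all arm peaks, the lowest-ranked ones and the wide ones. The members, comparisons and alternatives were chosen with earlier results of these data known. The gene table at hand is on Release 6, so genes and sequence were not analysed here.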

Additional observations from a re-analysis of the deposited data

How the results depend on the processing

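Of 59 repeats of the main values under another setting, 48 stayed within the binomial 95% interval of the value, or for the correlation within 1 SD over the 4 larger scaffolds, and 11 left it. The share of the list on Het scaffolds, 2.43%, was 3.33% when peaks below the list median score were left out and 3.94% in the highest-scoring 25%. The median width of 552 bases was 864 with peaks under 500 bases apart joined (arms 999) and 844 without peaks below the list median score (arms 1524.5). The median percentile at like width of 90.3 stayed between 87.4 and 91.4 without each scaffold in turn and under the other width and removal settings. It was 76.1 against the peaks nearest the centromere (220 Het peaks had enough matches), with 78.6% of Het peaks above the median there. Against single arms, chosen after seeing the data, it was 93.3 for 2L and 83.9 for X. The share of close pairs, 52.1%, was 24.9% after joining (arms 33.1%) and 43.1% without peaks below the list median score, where it was above the arm value of 35.1% and not below it as in the main value. With gaps under 1000 bases it was 47.5% (arms 45.7%), with gaps under 5000 bases 57.4% (arms 69.6%) and without 3LHet 56.6% (arms 56.2%). Its order against the arms thus turned with a shorter gap, with the stricter list and without 3LHet. The rank correlation of score with width was 0.66 without peaks under 300 bases. The cause of these moves was not tested. Of 18 repeats of a scaffold's share of Het peaks, 2 moved, both among the highest-scoring 25%, where 3RHet held 30.0% instead of 18.5% and 3LHet 24.5% instead of 33.6%. Also chosen after seeing the data were 1 value per group of neighbours, removal of peaks of 4000 bases or more and the proximal pairs as comparison. No paired analysis was possible because no file used here holds separate values for the libraries.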
